A study of Mus musculus with 13 samples.

Results

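The genes described are 7 that attach an epithelium to its basement membrane. They are Lama3 and Lamb3 (chains of laminin-332), Itga6, Itgb4 and Itga3 (subunits of its integrin receptors), Dst (the linker dystonin) and Npnt (the matrix protein nephronectin). These 7 of the 24394 gene symbols counted were chosen by name on their counts in these same libraries, with earlier results known, so their levels and differences are given as descriptions without a test. All 7 passed the filter on low counts, which left 17004 genes tested.

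The study followed the conversion of mouse fibroblasts into induced thymic epithelial cells (iTEC) by the transcription factor Foxn1, and asked how far the converted cells approach thymic epithelium. Total RNA of 13 libraries was sequenced. The labels give the growth and transfection text of primary iFoxn1/+ mouse embryonic fibroblasts (MEF), in which Cre switches on Foxn1, for every sample, fetal cells included, and list the genotype as N/A. MEF were untreated, of E13.5 (2 libraries). The iTEC groups received the Cre plasmid pPGK-Cre-bpA by nucleofection and were taken 2 days later (2 libraries), 10 days later (3 libraries), or 12 days later after a sort into Epcam- and Epcam+ cells (2 libraries each). The Pgk promoter of that plasmid drives Cre in any transfected cell, and unsorted cultures can hold cells that did not convert. Fetal thymic epithelial cells (TEC) were untreated, of E15.5 (2 libraries). The labels name no separate culture or animal behind the libraries of a group, and p-values here measure the spread between these libraries, which may be technical.

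Basal epithelial cells hold on to their basement membrane through hemidesmosomes. In these, integrin alpha6 beta4 spans the membrane, binds laminin-332 outside (a laminin trimer that holds the chains encoded by Lama3 and Lamb3) and is tied inside to keratin filaments by plectin and the epithelial form of dystonin. Integrin alpha3 beta1 is a further receptor of laminin-332. Nephronectin is a basement membrane ligand of integrin alpha8 beta1. In the thymus, epithelial cells lie on basement membrane beneath the capsule and around vessels.

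The promoters of the members are shown first because Foxn1, the factor switched on, binds DNA. The RefSeq promoter table (GRCm38.p6) held 8 windows for 4 of the 7 members (Lamb3, Itga3, Dst and Npnt). The 250 bases before a start site are given 5′ to 3′ on the gene's strand for the Lamb3 start at chr1:193301744-193301993 (plus strand), the Npnt start at chr3:132950292-132950541 (minus strand) and the Dst start at chr1:34011345-34011594 (plus strand). Capitals mark matches, on either strand, of GACGC (the core of the Foxn1 motif), of TGANTCA (AP-1) and of GGGCGG (the GC box), where neighbouring matches may overlap.
Lamb3: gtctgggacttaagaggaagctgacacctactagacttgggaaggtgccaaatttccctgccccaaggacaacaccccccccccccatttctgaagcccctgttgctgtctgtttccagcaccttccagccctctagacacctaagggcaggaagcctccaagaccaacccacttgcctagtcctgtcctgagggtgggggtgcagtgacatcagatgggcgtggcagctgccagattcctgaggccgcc
Npnt: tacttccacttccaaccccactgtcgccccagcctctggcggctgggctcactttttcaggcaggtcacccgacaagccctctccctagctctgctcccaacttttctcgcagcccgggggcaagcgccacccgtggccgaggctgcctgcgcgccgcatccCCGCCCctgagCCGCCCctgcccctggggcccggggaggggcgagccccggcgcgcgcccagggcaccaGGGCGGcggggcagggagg
Dst: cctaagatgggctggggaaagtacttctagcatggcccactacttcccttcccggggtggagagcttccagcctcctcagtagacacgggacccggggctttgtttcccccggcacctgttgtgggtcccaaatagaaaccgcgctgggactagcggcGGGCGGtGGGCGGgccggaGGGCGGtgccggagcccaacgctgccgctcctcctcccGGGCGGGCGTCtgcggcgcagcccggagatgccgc
The printed Lamb3 and Dst windows lie inside the annotated spans of their genes (193207699 to 193343878 and 33908225 to 34308661). They precede starts within the gene and do not describe the region before its annotated 5′ end. In the Lamb3 window none of these motifs was found. The Npnt window held 3 GC boxes, whose first bases lie 88, 77 and 19 bases before the start, and 0 matches of the Foxn1 core. A second Npnt start has its window inside the gene (chr3:132949815-132950064, not printed), and that window held 4 matches of the Foxn1 core, 247, 202, 27 and 17 bases before its start, the most of the 8 windows. The Dst window held 4 GC boxes and 1 match of the Foxn1 core, on the reverse strand 29 bases before the start, and the window of a second Dst start held 1 match of that core. Over the 8 windows of members, 3 held the Foxn1 core, 4 the GC box and 0 the AP-1 motif. Of all 32851 windows of the same length, 22.6% held the Foxn1 core, 32.7% the GC box and 6.7% the AP-1 motif. A match of letters is a description of the sequence and not a binding site.

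Libraries held 35805780 to 86465460 counts, and levels are counts per 1000000 (CPM) after TMM scaling. Foxn1 lay at no more than 18.3 CPM in MEF and at 292 to 468 CPM in every other library. Epcam lay at 0.56 and 0.29 CPM in the Epcam- libraries against 4.80 and 30.6 CPM in the Epcam+ libraries. The unsorted day 10 libraries held 5.03 to 5.53 CPM of Epcam, more than Epcam+ replicate 1, and fetal TEC held 312 and 574 CPM. The 3 libraries Epcam+ replicate 2 and fetal TEC replicates 1 and 2 stood apart in how counts followed transcript length. Spearman's rho was taken across genes between length and each library's log2 CPM minus the gene's mean over the 13 libraries. It was -0.38 to -0.35 in these 3 and 0.23 to 0.33 in the other 10. Long genes are thus low in the 3 relative to the other libraries. Both MEF and both Epcam- libraries held Xist (688 to 2475 CPM) with at most 0.0144 CPM over 4 Y-linked genes, while day 2, day 10 and Epcam+ libraries held the reverse (Xist at most 1.27 CPM, Y-linked genes 65.6 to 302 CPM), so a comparison across that line cannot be told apart from the sex of the starting cells. The 9 macrophage markers summed to 2870 and 2980 CPM in MEF but 1.97 to 6.81 CPM in day 2, day 10 and Epcam- libraries, where at least 3 of the 9 were at 0. The part of the macrophage markers in the differences from MEF was not tested.

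**Figure D1:**
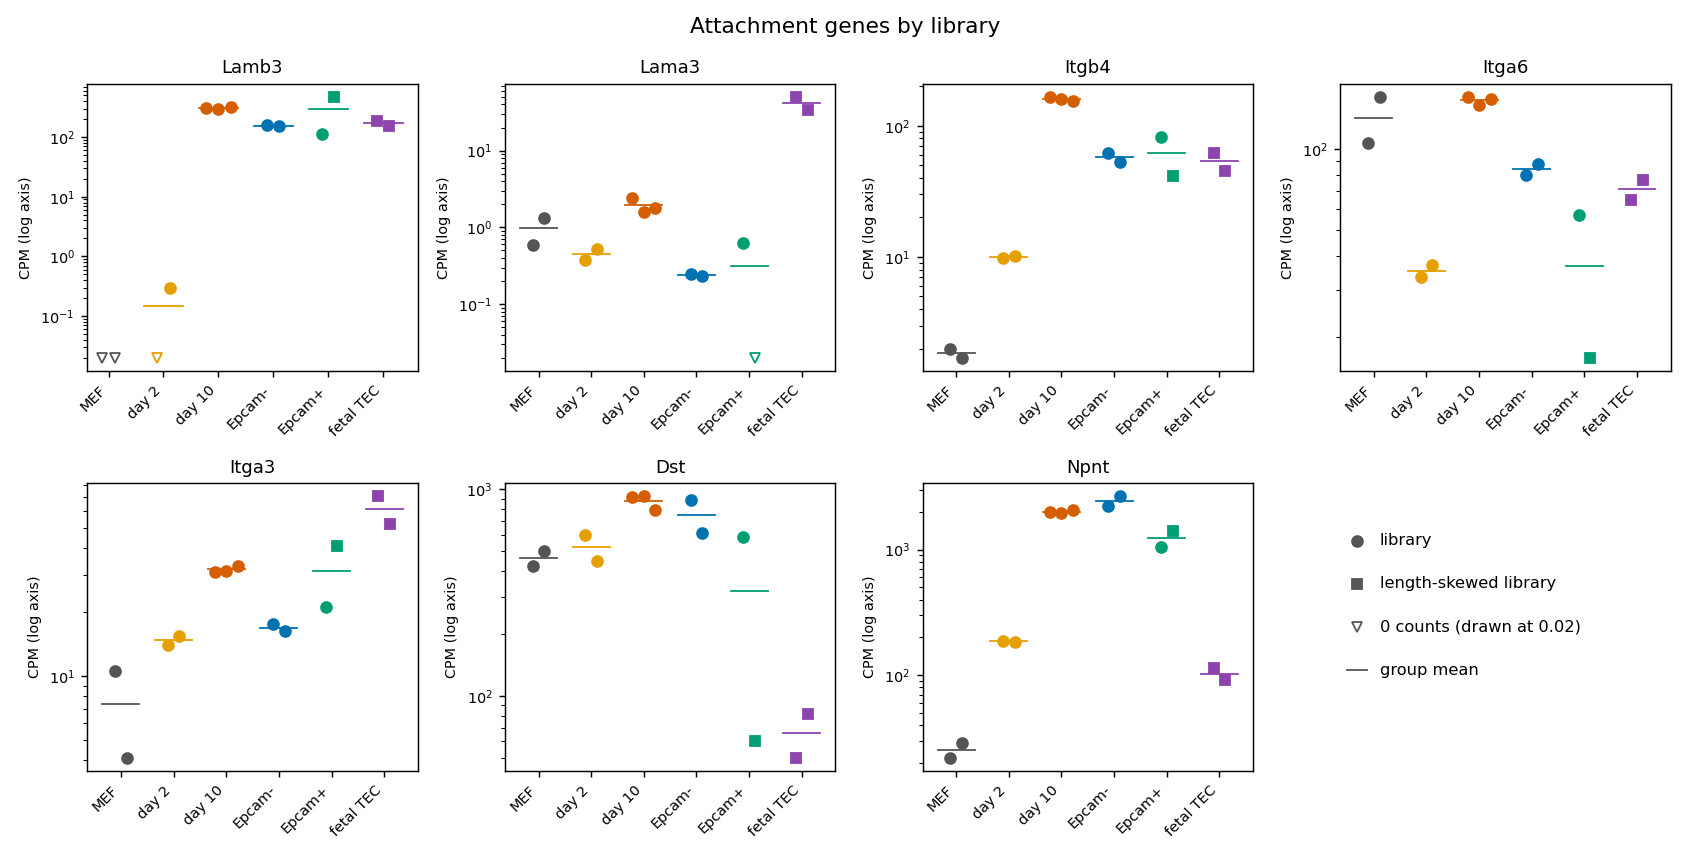
Levels of the 7 genes in each library (CPM, log axis), by group. Points are libraries and short lines are group means. Squares are the 3 libraries with few counts on long genes, and open triangles are libraries with 0 counts. Lamb3 goes from 0 in MEF to about 300 CPM at day 10, while Lama3 exceeds 3 CPM only in fetal TEC.

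The levels of Lamb3 and Lama3 lay far apart at day 10 and in Epcam- cells. Lamb3 (ENSMUSG00000026639.18, chromosome 1, 193207699 to 193343878, mm10), the beta3 chain, had 0 counts in both MEF libraries and in day 2 replicate 1, and 23 counts (0.30 CPM) in day 2 replicate 2. It then lay at 310, 295 and 323 CPM in the 3 day 10 libraries, at 158 and 151 CPM in Epcam-, at 115 and 475 CPM in Epcam+ and at 186 and 153 CPM in fetal TEC. Every day 10, day 12 and fetal TEC library thus lay far above every MEF and day 2 library. Against the 3 counts that 0 over the MEF group allows, day 10 was at least 12610-fold higher and Epcam- at least 6299-fold higher, and these bounds were 5144-fold or more and 2570-fold or more with either MEF library left out. Against day 2 the ratio of means at day 10 was 2072, which rests on day 2 replicate 2, and without that library it was at least 5688-fold. In bulk RNA, fewer cells of a type and less RNA per cell cannot be told apart, here and for every gene below.

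Lama3 (ENSMUSG00000024421.16, chromosome 18, 12333819 to 12583013), the alpha3 chain that carries the integrin-binding domain, stayed low in every culture. It lay at 0.59 and 1.34 CPM in MEF, 0.38 and 0.52 CPM at day 2, 2.43, 1.59 and 1.78 CPM at day 10, 0.24 and 0.23 CPM in Epcam- and 0.63 and 0 CPM in Epcam+. Fetal TEC held 50.4 and 33.9 CPM, above every other library. The 3 day 10 libraries were above both MEF libraries, but the fitted log2 difference (1.0 ± 0.99, standard error) was about the size of its error and was 1.70 without MEF replicate 2. Lama3 was also higher in every day 10 library than in both day 2 libraries (log2 2.1 ± 1.05, 4.30-fold in the means). Fetal TEC exceeded day 10 by 4.44 ± 1.02 on the log2 scale, 21.8-fold in the means.

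Levels between genes are compared per kilobase of the longest annotated transcript, without telling isoforms apart. On that scale Lamb3 exceeded Lama3 277-, 403- and 392-fold in the day 10 libraries and 1405- and 1421-fold in the Epcam- libraries. In fetal TEC the same ratio was 8.01 and 9.79. At day 10 and in Epcam- cells Lama3 was thus far scarcer than Lamb3 in every library, by 277-fold or more, against at most 9.79-fold in fetal TEC.

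**Figure D2:**
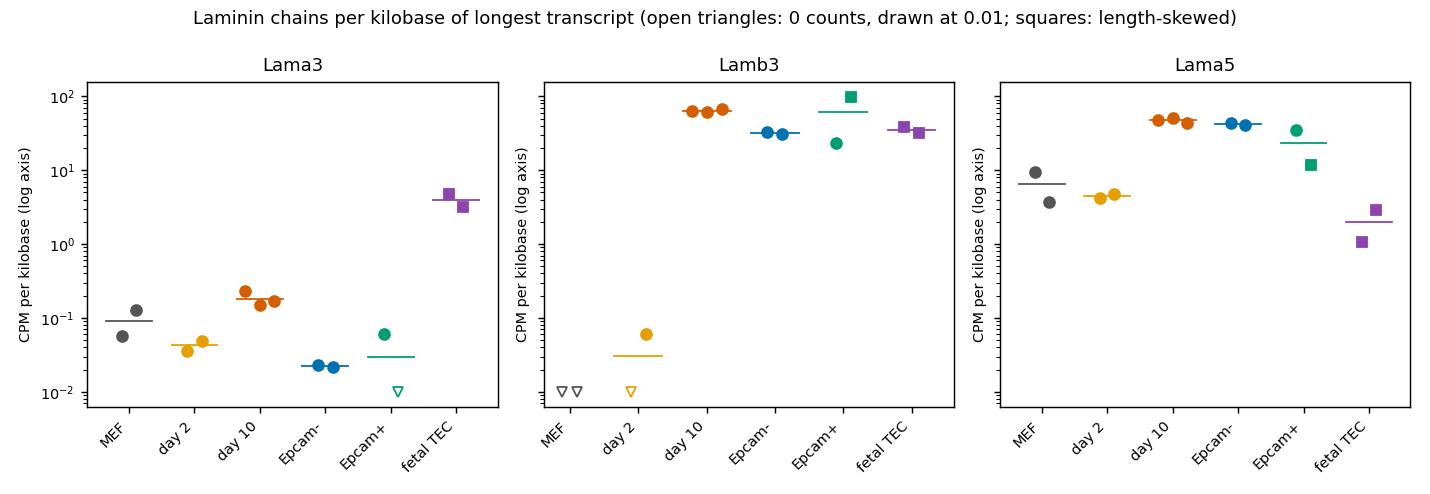
Level per kilobase of longest transcript (CPM per kilobase, log axis) of Lama3, Lamb3 and Lama5, in each library by group. Lines are group means, squares the 3 libraries with few counts on long genes, and open triangles libraries with 0 counts. Lamb3 is high at day 10, Lama3 only in fetal TEC, and Lama5 is high at day 10 and in the Epcam- libraries.

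Of the 8 other laminin chains, 2 rose and 0 fell at day 10 against MEF, with a median log2 change of -0.65 beside 0.00 over all tested genes. Over all tested genes 9.42% rose in that comparison, a share that also stands beside each list below. Lama5, the alpha5 chain of the laminins that most epithelia carry, lay at 108 and 41.9 CPM in MEF and at 552, 588 and 491 CPM at day 10. Lama5 rose by 2.86 ± 0.63 on the log2 scale (adjusted p = 0.0145), and the value was 3.67 without MEF replicate 1. Without MEF replicate 2 the call was lost (adjusted p = 0.129). Per kilobase, Lama5 exceeded Lama3 210- to 343-fold at day 10, whereas in fetal TEC Lama3 was the higher (ratio 0.22 and 0.90). Lamb2, the beta2 chain, lay at 229 and 162 CPM in MEF, 92.2 and 104 CPM at day 2 and 394, 414 and 385 CPM at day 10. Lamb2 rose at day 10 against MEF (log2 1.03 ± 0.28, adjusted p = 0.0354), a call that was lost when any library other than the Epcam+ and fetal TEC pairs was left out (adjusted p up to 0.247). It also rose from day 2 to day 10 (2.02 ± 0.30, adjusted p = 0.00214).

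Among the integrin subunits, Itgb4 separated the groups in steps. Itgb4 (ENSMUSG00000020758.15, chromosome 11, 115974709 to 116008412) encodes beta4, which pairs with alpha6 alone and defines the hemidesmosome receptor. It lay at 1.98 and 1.70 CPM in MEF, 9.90 and 10.1 CPM at day 2, 167, 160 and 155 CPM at day 10, 61.5 and 53.3 CPM in Epcam-, 82.3 and 41.4 CPM in Epcam+, and 61.6 and 45.4 CPM in fetal TEC. MEF, day 2 and day 10 did not overlap, and the day 10 libraries had the highest CPM of all. That rank over fetal TEC did not hold with the length offset described below (log2 of fetal TEC minus day 10 0.27, against -1.59 without it). The mean was 5.44-fold higher at day 2 than in MEF (log2 2.44 ± 0.36) and 87.2-fold higher at day 10 (6.44 ± 0.42). Epcam-, Epcam+ and fetal TEC overlapped in their levels.

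Itga6 (ENSMUSG00000027111.15, chromosome 2, 71745616 to 71858416), the alpha6 partner, which also pairs with beta1, was already abundant in MEF. It lay at 105 and 156 CPM in MEF, 33.5 and 37.2 CPM at day 2, 156, 145 and 153 CPM at day 10, 79.8 and 88.3 CPM in Epcam-, 57.0 and 16.8 CPM in Epcam+ and 64.8 and 76.9 CPM in fetal TEC. The day 2 libraries were below every MEF and day 10 library (log2 -1.88 ± 0.48 against MEF), and day 10 returned to the range of MEF (0.21 ± 0.43, and -0.07 without MEF replicate 1). The ratio of Itgb4 to Itga6 per kilobase was 0.013 and 0.0076 in MEF, 0.21 and 0.19 at day 2, 0.74, 0.77 and 0.70 at day 10, 0.53 and 0.42 in Epcam-, 1.003 and 1.71 in Epcam+, and 0.66 and 0.41 in fetal TEC. At day 2 the ratio was above that of MEF with higher Itgb4 and lower Itga6, and at day 10 both genes were above their day 2 levels.

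**Figure D3:**
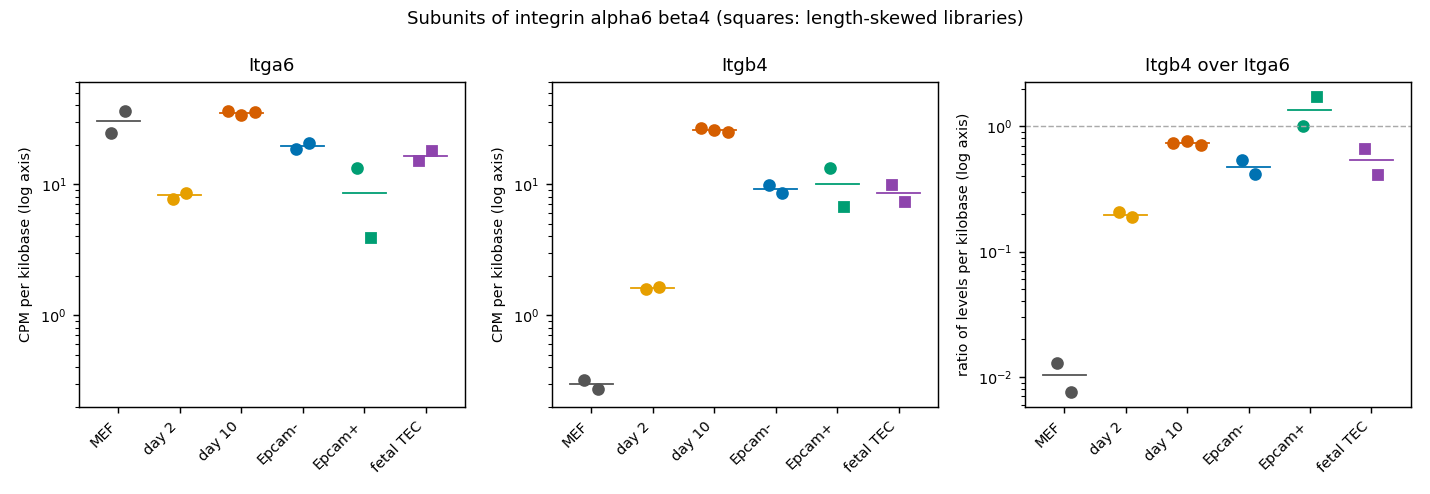
Itga6 and Itgb4 per kilobase (CPM per kilobase, log axis) and the ratio of Itgb4 to Itga6 in each library, by group. Lines are group means, squares the 3 libraries with few counts on long genes, and the dashed line marks equal levels. Itga6 is lowest of the unsorted cultures at day 2, where Itgb4 is already above MEF, and the ratio is near 0.01 in MEF and at least 0.41 in every day 10, day 12 and fetal TEC library.

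Itga3 (ENSMUSG00000001507.16, chromosome 11, 95044474 to 95076801), the alpha3 subunit, had a narrower range. It lay at 10.6 and 4.11 CPM in MEF, 14.1 and 15.4 CPM at day 2, 30.9, 31.4 and 33.2 CPM at day 10, 17.5 and 16.3 CPM in Epcam-, 21.1 and 41.2 CPM in Epcam+ and 70.4 and 52.2 CPM in fetal TEC. MEF, day 2, day 10 and fetal TEC followed each other upward without overlap. The log2 difference of day 10 from MEF was 2.12 ± 0.45, and 2.93 without MEF replicate 1. Its partner Itgb1, the beta1 subunit, lay at 2020 and 3080 CPM in MEF and at 2041 to 2113 CPM at day 10, with no call between these groups (log2 -0.30 ± 0.52, adjusted p = 0.784).

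Of the 16 other integrin subunits, 3 rose and 2 fell at day 10 against MEF (median log2 -0.20). Itga2, the alpha2 subunit of a collagen receptor, had 2 counts over both MEF libraries and lay at 50.0, 45.9 and 47.8 CPM at day 10. The ratio of its pooled counts, each over the library sizes of its group, was 2949 (95% counting interval 816 to 24350, for counting error only; fitted log2 11.39 ± 0.83, adjusted p = 9.59e-05), and the fitted value was 14.51 without MEF replicate 1, which held those counts, and 10.66 without MEF replicate 2. Itga5, the fibronectin receptor subunit, fell from 496 and 258 CPM to 94.6, 97.4 and 99.1 CPM (log2 -1.96 ± 0.41, adjusted p = 0.0111), a call that was lost without MEF replicate 1 (adjusted p = 0.0804).

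Dst (ENSMUSG00000026131.18, chromosome 1, 33908225 to 34308661) had the highest CPM of the chosen genes in MEF. Its counts pool the epithelial, neuronal and muscle forms, so the hemidesmosomal form was not measured on its own. It lay at 427 and 501 CPM in MEF, 599 and 448 CPM at day 2, 922, 924 and 797 CPM at day 10, 888 and 616 CPM in Epcam-, 585 and 60.6 CPM in Epcam+ and 50.2 and 81.2 CPM in fetal TEC. The day 10 libraries lay above all MEF and day 2 libraries, but the log2 difference from MEF (0.93 ± 0.71) was little more than its standard error. The 3 lowest values are those of the libraries with few counts on long genes, and Dst has the longest transcript of the 7 (23279 bases). Per kilobase, Itga6 exceeded Dst in both MEF libraries (24.5 and 36.1 CPM against 18.3 and 21.5 CPM).

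The other parts of the hemidesmosome were mixed. Col17a1, the transmembrane collagen BP180, did not exceed 1.10 CPM in any culture and lay at 9.30 and 1.28 CPM in fetal TEC, with no call in any of the 6 comparisons (adjusted p = 0.0806 for fetal TEC against day 10 and 0.01 with the length offset described below, 0.631 or more for the others). Plec, the plectin that anchors beta4, lay at 1237 and 556 CPM in MEF and 1031 to 1133 CPM at day 10, also without a call (adjusted p = 0.807). Cd151, a tetraspanin bound to alpha3 and alpha6 integrins, rose from 40.6 and 29.8 CPM in MEF to 157, 154 and 158 CPM at day 10 (log2 2.15 ± 0.35, adjusted p = 0.00332). Col7a1, the collagen of anchoring fibrils, fell from 157 and 94.4 CPM to 9.80, 7.69 and 7.76 CPM (-3.90 ± 0.74, adjusted p = 0.00687). Fermt1, the epithelial integrin activator kindlin-1, was at 0 in MEF and day 2 and did not exceed 0.26 CPM in the cultures, against 104 and 141 CPM in fetal TEC (log2 9.24 ± 1.0 above day 10, adjusted p = 0.000364). Of these 5 partners, 2 rose and 1 fell at day 10 against MEF; beside Cd151 the one that rose was Fermt1, from 0 counts to 7 to 11 counts per library (adjusted p = 0.0411, lost when any library other than the Epcam+ pair was left out).

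Of the 5 other plakin family genes, 3 rose at day 10 against MEF, where 9.42% of all tested genes rose. Dsp, the desmosomal linker desmoplakin, lay at 0.37 and 0.72 CPM in MEF, 5.06 and 5.27 CPM at day 2 and 855, 828 and 838 CPM at day 10 (log2 10.59 ± 0.89, adjusted p = 0.000105). Evpl and Ppl, the cornified envelope proteins envoplakin and periplakin, rose by 6.99 ± 1.14 (adjusted p = 0.00339) and 6.08 ± 1.01 (adjusted p = 0.00361). Both calls were lost without MEF replicate 2 (adjusted p = 0.0535 and 0.0553). The hemidesmosomal plakins Dst and Plec were within 1 log2 unit of MEF. All these genes were listed with earlier results known, so the contrast is a description.

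Npnt (ENSMUSG00000040998.18, chromosome 3, 132881745 to 132950291) reached the highest levels of the 7. It lay at 22.1 and 29.0 CPM in MEF, 187 and 184 CPM at day 2, 2002, 1941 and 2064 CPM at day 10, 2216 and 2648 CPM in Epcam-, 1049 and 1401 CPM in Epcam+ and 114 and 91.9 CPM in fetal TEC. Every day 2 library was above MEF and every later culture above day 2, and fetal TEC lay between MEF and day 2. The mean was 7.26-fold above MEF at day 2 (log2 2.86 ± 0.31) and 78.5-fold at day 10 (6.29 ± 0.36). Per kilobase Npnt lay at 420 to 447 CPM at day 10, against 60.7 to 66.4 CPM for Lamb3.

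Itga8, the alpha8 subunit that binds nephronectin, was singled out after its values were seen. It lay at 100 and 164 CPM in MEF, 2.47 and 1.57 CPM at day 2 and 38.0, 30.6 and 31.7 CPM at day 10, with no call between these groups (adjusted p = 0.0878 for day 2 against MEF). Egfl6, a matrix protein related to nephronectin, took a similar path, at 24.9 and 59.7 CPM in MEF, 0.054 and 0.39 CPM at day 2 and 133, 124 and 122 CPM at day 10. Egfl6 fell at day 2 against MEF (log2 -7.51 ± 1.25, adjusted p = 0.00758; lost without day 2 replicate 1, adjusted p = 0.0761; -9.55 without day 2 replicate 2 and -6.75 without MEF replicate 2). It rose from day 2 to day 10 (9.09 ± 1.31, adjusted p = 0.00209; 11.12 without day 2 replicate 2 and 8.33 without replicate 1). Npnt was thus already above MEF at day 2, when the receptor subunit and the related protein were at their lowest among MEF, day 2 and day 10.

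Of the 19 other basement membrane components, 3 rose and 1 fell at day 10 against MEF (median log2 1.54). Bcam, a receptor of laminin alpha5, rose from 1.66 and 0.70 CPM to 80.0, 75.6 and 78.3 CPM (log2 6.04 ± 0.79, adjusted p = 0.000953; 6.77 without MEF replicate 1). Nid1, the nidogen that links laminin to collagen IV, fell from 855 and 1248 CPM to 130 to 133 CPM (-3.00 ± 0.55, adjusted p = 0.00598). Of the 14 focal adhesion adaptors, 0 rose and 1 fell, and of the 4 proteases that cut laminin-332 chains 0 rose and 1 fell.

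Set side by side at day 10 against MEF, 6 of the 7 chosen genes were higher in every day 10 library, where 35.3% of all tested genes were, and the median log2 difference was 2.12 beside 0.00 over all tested genes, the same with Lamb3 set to its lower bound. Against day 2 all 7 were higher in every day 10 library, where 39.7% of tested genes were, and the median was 2.10 beside 0.02. At day 2 itself, 3 of 7 were above MEF without overlap (Itgb4, Itga3 and Npnt; 28.9% of tested genes) and 2 below (Lama3 and Itga6; 29.1%). In Epcam- against MEF, 5 were above (37.0%) and 2, Lama3 and Itga6, below (32.8%). By the test used for other genes, 4 of the 7 would be called higher at day 10 against MEF and 4 against day 2 (9.42% and 8.24% of tested genes), 2 at day 2 (2.87%) and 3 in Epcam- (7.37%); since these contrasts were known when the genes were chosen, nothing is read from those counts.

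Among the 71 other attachment genes, 13 rose and 6 fell at day 10 against MEF, where 16.0% of all tested genes were called in either direction. From day 2 to day 10, 15 rose and 4 fell (12.6%), at day 2 against MEF 5 rose and 4 fell (5.52%), and in Epcam- against MEF 13 rose and 5 fell (11.9%). The counts depended on single libraries. In each of these comparisons they fell when a library of a compared group was left out and rose when either Epcam+ library was. The counts over all tested genes moved in the same directions, so these shifts are not particular to the attachment genes. In the Epcam- comparison Dsp (log2 8.75 ± 0.84, adjusted p = 0.00025) and Bcam (4.76 ± 0.75, adjusted p = 0.00353; 5.49 without MEF replicate 1) rose again, and Nid1 fell (-4.28 ± 0.68, adjusted p = 0.00356; lost without Epcam- replicate 2, adjusted p = 0.0528).

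**Figure D4:**
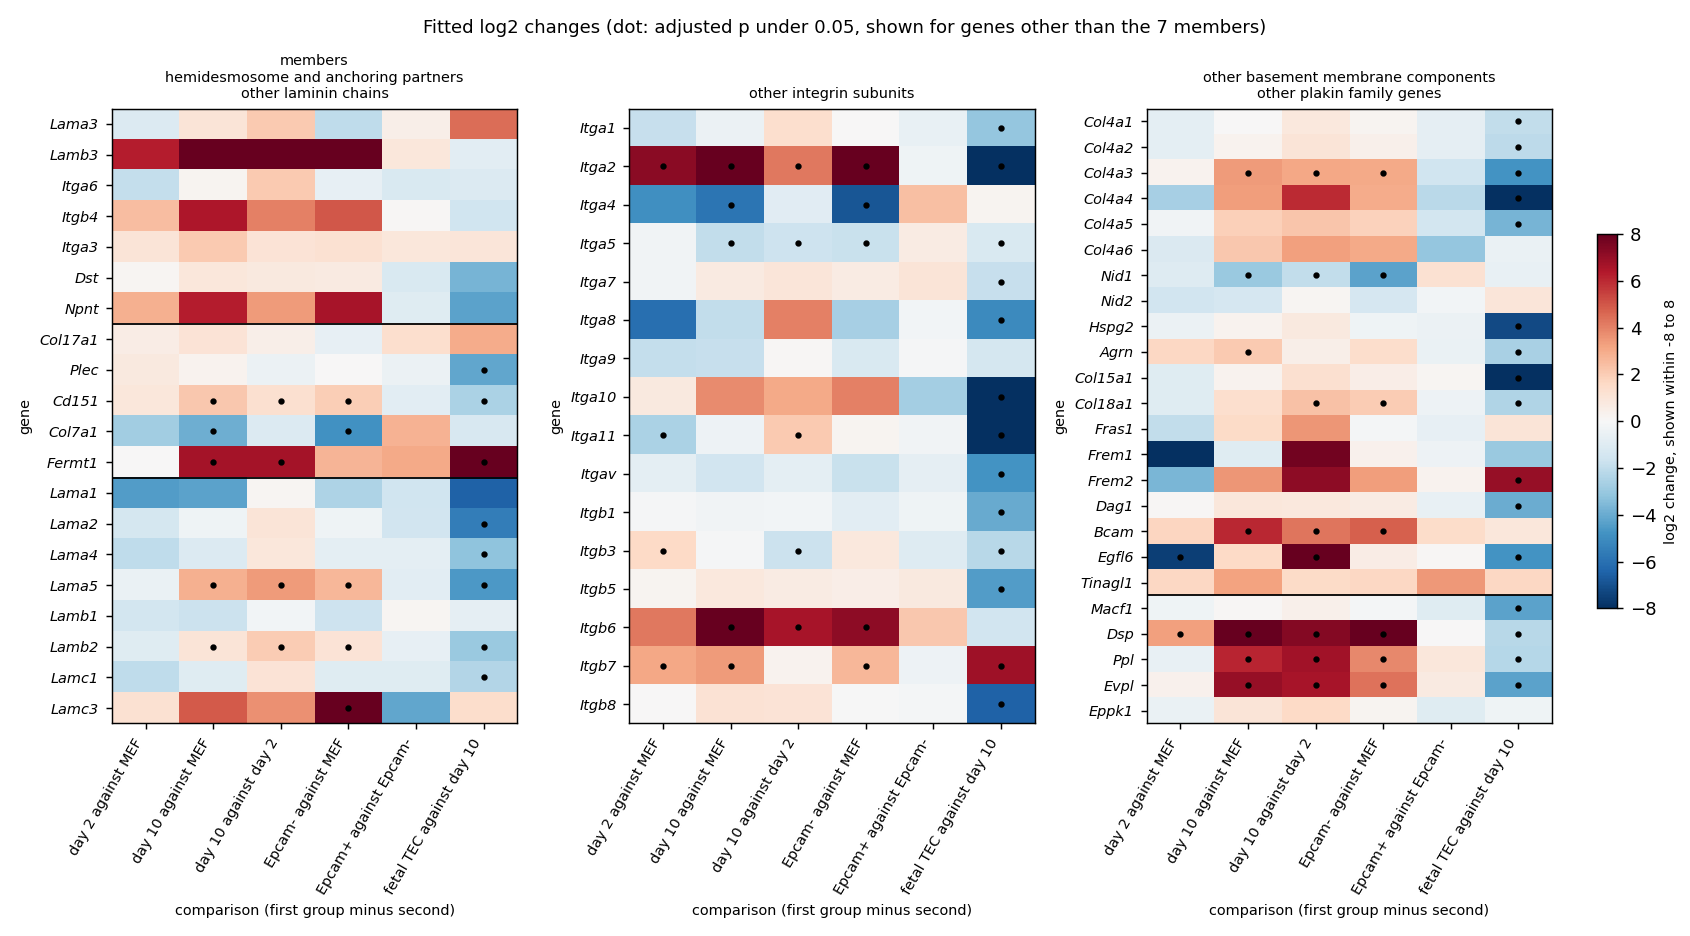
Fitted log2 changes of the 7 chosen genes and of the genes of 5 of the 7 other lists (rows) in the 6 comparisons (columns), red for higher and blue for lower in the first group, shown within -8 to 8. Dots mark an adjusted p under 0.05 and are drawn only for genes outside the 7. The column of Epcam+ against Epcam- holds 0 dots, and the column of fetal TEC against day 10 is mostly blue.

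The sort for Epcam at day 12 gave no call among the attachment genes. Both Epcam- libraries held Xist (923 and 688 CPM), while both Epcam+ libraries held Y-linked genes (226 and 65.6 CPM). This comparison therefore cannot be told apart from the sex of the starting cells. The Epcam+ libraries lay far apart: Dst was at 585 and 60.6 CPM, Itga6 at 57.0 and 16.8 CPM and Lamb3 at 115 and 475 CPM, and replicate 2 is among those with few counts on long genes. Replicates 1 and 2 also differed in summed markers, with 29157 and 2713 CPM over 8 fibroblast markers, 4383 and 40472 CPM over 9 of thymic epithelium, 196 and 11.8 CPM over the 9 of macrophages and 33.3 and 752 CPM over 7 of skeletal muscle, of which Myod1 and Myog were at 0 in both. The part of these markers in the levels of attachment genes was not tested. Of the 7 chosen genes, 1 was higher in both Epcam+ libraries than in both Epcam- libraries (Itga3; 21.0% of tested genes) and 3 were lower (Itga6, Dst and Npnt; 24.4%), and 0 would be called (0.259% of tested genes). Npnt differed by log2 -0.99 ± 0.29, by -1.21 to -0.80 as each library was left out, and by 0.04 with the length offset described below. Itga3 (0.28 to 2.15), Itga6 (-2.33 to -0.56) and Dst (-3.64 to -0.14) kept their sign under all 22 alternatives run. Lamb3 differed by 0.93 ± 0.91, and by -0.43 without Epcam+ replicate 2. Dst differed by -1.22 ± 0.76, and by -0.36 without that library. With edgeR, 0 of 71 other attachment genes were called, and 12 had an unadjusted p under 0.05 (7 higher and 5 lower). The share of all tested genes at that unadjusted p was 19.2%. DESeq2 called 7 of the 71, and 1745 over all genes. With either Epcam+ library left out more attachment genes were called, and the count over all tested genes rose too.

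Fetal TEC were compared with day 10. Lama3 and Itga3 were higher in both fetal TEC libraries than in every day 10 library (2 of 7; 42.1% of tested genes), and Lamb3, Itgb4, Itga6, Dst and Npnt were lower (5 of 7; 41.5%). The log2 differences were -0.87 ± 0.85 for Lamb3, -1.59 ± 0.33 for Itgb4, -1.10 ± 0.44 for Itga6, 0.95 ± 0.41 for Itga3, -3.74 ± 0.81 for Dst and -4.28 ± 0.32 for Npnt. Because both fetal TEC libraries hold few counts on long genes, the fit was repeated with each library's trend on transcript length taken out as an offset. Then Lama3 was 7.04 and Itga3 2.16 above day 10, and Npnt was still 3.21 below (log2 -3.21). Itgb4 turned to 0.27 and Lamb3 to 0.36, while Dst shrank to -0.56 and Itga6 to -0.22. The offset thus turned the direction of Itgb4 and Lamb3 and left those of the other 5, of which Dst and Itga6 came within 0.56 of 0.

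**Figure D5:**
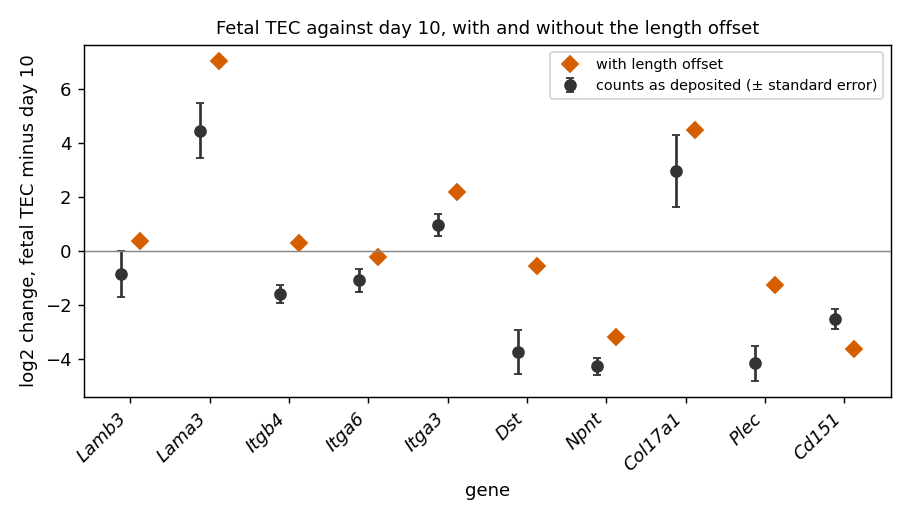
Fitted log2 difference of fetal TEC minus day 10 for the 7 chosen genes and 3 hemidesmosome partners, from the counts as deposited (circles, bars are standard errors) and with the length offset (diamonds). Itgb4 and Lamb3 cross 0 with the offset, Lama3, Itga3 and Npnt lie more than 2 from 0 with it, and Dst and Plec move from near -4 to -0.56 and -1.28.

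Of the 71 other attachment genes, 3 were higher and 45 lower in fetal TEC than at day 10 (12 higher and 33 lower with the length offset), where 59.3% of all tested genes were called, and the median log2 difference was -2.33 beside 0.10 over all tested genes. Plec was lower by 4.17 ± 0.65 (log2 -4.17, adjusted p = 0.000899; -1.28 with the length offset), and Cd151, a short gene, by 2.52 ± 0.36 (log2 -2.52, adjusted p = 0.000567; -3.63 with the offset). Itga2 was at 0 in both fetal TEC libraries, at least 1829-fold lower than at day 10 (adjusted p = 2.98e-05). Itga11, a collagen receptor subunit, lay at 0.14 and 0.20 CPM in fetal TEC against 489 to 549 CPM at day 10 (log2 -11.58 ± 0.76, adjusted p = 1.33e-05). Hspg2, the proteoglycan perlecan, lay at 8.24 and 12.9 CPM in fetal TEC (-7.19 ± 1.22, adjusted p = 0.00137; -4.30 with the offset). Lama5 lay at 12.0 and 33.0 CPM (-4.59 ± 0.69, adjusted p = 0.000782; -1.86 with the offset and -5.51 without fetal TEC replicate 2).

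The 3 that were higher in fetal TEC without the offset were Fermt1, Frem2 and Itgb7. Frem2, a protein of the Fraser complex beneath embryonic epithelia, lay at 25.8 and 46.9 CPM (log2 6.96 ± 1.32, adjusted p = 0.00293). Itgb7, a leukocyte integrin subunit, lay at 119 and 109 CPM (6.79 ± 0.69, adjusted p = 0.000104). The 6 thymocyte markers summed to 1163 and 533 CPM in fetal TEC against 0.44 to 0.68 CPM at day 10, the 7 skeletal muscle markers to 980 and 2247 against 12.9 to 14.2, and the 5 basal keratinocyte markers to 3577 and 5695 against 14.2 to 15.0. The 9 macrophage markers summed to 414 and 508 CPM against 2.65 to 3.36 CPM, while the 8 fibroblast markers were lower, at 4035 and 2479 CPM against 12362 to 13343 CPM. None of these markers was at 0 in fetal TEC, and their part in the levels of attachment genes was not tested.

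Across the 13 libraries the levels of the 7 genes fell along several courses. Pearson's r of log2(CPM + 0.5) was 0.92 between Lamb3 and Itgb4, 0.83 between Itgb4 and Npnt and 0.75 between Lamb3 and Npnt, but 0.25 between Lama3 and Lamb3, 0.13 between Itga6 and Itgb4, and -0.56 between Lama3 and Dst. Among 13505 other genes, that closest to Lamb3 was Smtnl2 (r = 0.99), to Itgb4 was Dsp (0.99), to Npnt was Flt3l (0.98), to Lama3 was Gm20219 (0.97), to Itga6 was Mtss1 (0.96), to Itga3 was Krt7 (0.94) and to Dst was Kif3b (0.99). These are descriptions over 13 libraries that share groups, depth and the length trend. Lamb3 and Itgb4 were higher in every day 10, day 12 and fetal TEC library than in every MEF and day 2 library. Lama3 and Col17a1 were at or below 2.43 CPM in every culture. Levels in the cultures thus bear out the name hemidesmosome and laminin-332 genes only in part.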

How the data were processed

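RNA of 13 mouse libraries in 6 groups was measured. The authors deposited whole-number read counts for each gene symbol, unscaled. FastQC, Trimmomatic, HISAT2, SAMtools, StringTie, DESeq2 and the mm10 build are named per the submitters' processing notes, without versions or settings. The use of strand and the handling of reads shared between similar or overlapping genes are not given in the sources used here. Columns named No_Cre were read as MEF, since no other labelled group lacks Cre except fetal TEC, which has its own columns.

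The test was the quasi-likelihood F test of edgeR 4.0.16 (R 4.3.3), after TMM scaling and filterByExpr by group (17004 of 24394 symbols kept). All 13 libraries entered a single robust model with a mean for each group, so that groups of 2 or 3 share an estimate of the spread. Calls are at a Benjamini-Hochberg adjusted p under 0.05 over all tested genes. CPM are counts per 1000000 of library size times TMM factor. The floor of 3 counts in 1 library lies at 0.0300 to 0.0776 CPM, and floors and intervals cover counting error only. Levels per kilobase and gene positions use GENCODE release M21 (mm10), which gave a length for 95.7% of symbols. The length offset is a lowess trend, on log2 transcript length, of each library's log2 CPM minus the gene's mean over the libraries. Simulated data with known changes, drawn at the real library sizes, had 66% of genes changed 16-fold and 16% of those changed 4-fold called for day 10 against MEF over 17004 genes.

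The chosen genes and all gene lists were drawn up with earlier results of these data known. Named outside the chosen genes were Col17a1, Plec and Cd151 always. Others were taken, in each other list and comparison, from up to 3 called genes with the smallest p and at least 5 CPM in the higher group. Not every gene under that rule is named. For Epcam- against MEF, for example, none of the 3 other laminin chains that rose is. Fermt1, Col7a1 and Egfl6 also fall under that rule in some comparisons. Itgb1 and Itga8 were added as partner subunits after their values were seen. A gene of the partner list is not reported here and was left out of every list and count of listed genes. Alternatives were other scalings, filters, DESeq2 1.42.0, fits of the 2 groups alone, a replicate block and leaving out each library, and, chosen after seeing the data, the length offset and fits without the 3 length-skewed libraries or without Epcam+. Replicates were compared before averaging: the median chi-square over its expected median was 1.94 to 2.87 among day 10 libraries and 12.3 to 691 in the other groups, so all were kept as separate samples. Replicate numbers were not taken as pairs.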

Additional observations from a re-analysis of the deposited data

How the results depend on the processing

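Of 42 member differences (7 genes in 6 comparisons), 34 took the opposite sign under no alternative run and 8 took it under at least 1. Among the 34, Lamb3 at day 2 against MEF went from 6.31 to 0 without day 2 replicate 2, which held its only counts there. Of 951 recomputed values 904 stayed within 1 standard deviation of the reported one and 46 moved further. The last 1 turned its sign past a called value: Itgb4 in fetal TEC against day 10, log2 -1.59 as reported and 0.27 with the length offset. The standard deviation is between libraries, from the summed variances of log2 levels in the 2 groups. Many alternatives left out a library of a group outside the comparison, which can change a difference little. The 904 is therefore no measure of stability. The counts of calls depended far more on the settings. Taking first day 2 and then day 10 with MEF as the reference, next day 10 over day 2, Epcam- over MEF and last the sort (Epcam+ over Epcam-), the reported counts of all genes were 938, 2720, 2151, 2025 and 44, and of the 71 attachment genes 9, 19, 19, 18 and 0. DESeq2 called 2203, 4221, 3605, 3640 and 1745 genes, and 18, 31 and 35 attachment genes in the first 3 comparisons and 7 in the last. With only the 2 groups compared in the fit, 2949, 7959, 10927, 4996 and 0 genes and 24, 50, 65 and 39 attachment genes (first 4) were called. Without the 3 length-skewed libraries these were 6438, 9231, 8373, 8671 and 1651 genes and 42, 53, 57, 47 and 10 attachment genes. Without both Epcam+ libraries they were 3861, 6797, 5933 and 6048 genes and 34, 45, 50 and 42 attachment genes. The length offset gave 20 attachment genes at day 2 against MEF, and 85 genes and 2 attachment genes in the sort; library size alone gave 5 attachment genes at day 2 and 7 genes in the sort; no filter gave 24 genes in the sort. The cause of these shifts was not tested.

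Leaving out each library in turn gave, in the same order and then for fetal TEC against day 10, 299 to 3718, 1028 to 6650, 564 to 5792, 719 to 5897, 0 to 9545 and 7877 to 12919 genes, and 2 to 34, 9 to 43, 4 to 50, 3 to 42, 0 to 49 and 40 to 58 attachment genes. The highest counts came without an Epcam+ library, and a group left with 1 library is assumed to vary like the others. The deviations of same-numbered libraries correlated by 0.12 in the sort, just above the limit of 0.1, and by -0.22 to 0.02 in the other comparisons; no comparison shares more than 2 numbers and the labels give them no meaning, so they were not taken as pairing; with the number as a replicate block 391, 1040, 831, 915 and 1 genes and 3, 9, 8 and 8 attachment genes (first 4) were called. Lama3 and Col17a1 rest on few counts in the cultures, Lama3 on 17 to 157 counts in the libraries where it was found. The part of depth in their fitted errors was not tested.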
